A study of Mus musculus with 23 samples.

Results

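The Hox genes encode homeodomain transcription factors that set positional identity along the head-to-tail axis, and 38 of them, all members of the Hoxa, Hoxb, Hoxc and Hoxd clusters, were examined here among 21938 protein-coding genes. They were chosen by name and not by a measured value, but with earlier results of these data known. The data are ChIP-seq peak lists for 2 histone marks in cortical cells of mouse embryos that carry the Ebf2-EGFP transgene (Tg(Ebf2-EGFP)FB58Gsat), a bacterial artificial chromosome in which EGFP follows the regulatory sequence of Ebf2. Cells were sorted by fluorescence into Ebf2-EGFP- cells of E11.5, mostly neural progenitors, and Ebf2-EGFP+ cells of E11.5, of E13.5 and of E15.5. All cell groups, the EGFP- cells included, came from this line, and no other allele or treatment is named. At E11.5 the Ebf2-EGFP+ cells are preplate neurons, a mixture of Cajal-Retzius (CR) and subplate neurons, and by E15.5 they are mostly CR neurons, so EGFP follows a mixed population that changes with stage. Below, the E11.5 EGFP- cells are called EGFP- cells, and EGFP+ cells are named by their stage. There was 1 peak list for each of the 8 combinations of mark and cell group. Each combination had 2 ChIP libraries, and H3K27ac of the EGFP- cells had 1, but how the libraries entered a list is not given in the sources used here. No group had replicate lists, so no error can be given, and every difference between lists below is a description without a test.

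Hox genes lie in their clusters in the order in which they act along the body, with low paralog numbers (anterior, expressed up to the hindbrain) at one end and high numbers (posterior, trunk, limb and tail) at the other. The forebrain, from which the cortex forms, lies in front of the domain of normal Hox expression. H3K27me3, trimethylation of lysine 27 of histone H3, is set by Polycomb repressive complex 2 and classically covers silent Hox clusters. H3K27ac, acetylation of the same lysine, marks active promoters and enhancers, and a given lysine cannot carry both.

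The lists ranged from 1386 to 102881 peaks with median widths of 138 to 284 bp, and sequencing depth is unknown. The E13.5 H3K27ac list, with 102881 peaks, was the longest, and the E11.5 EGFP- H3K27ac list, with 1386, and the E15.5 H3K27me3 list, with 1438, were the shortest. As a check of the labels, any transcription start site (TSS) with a peak up to 5 kb away was called marked. H3K27ac marked 2, 5, 5 and 4 of 5 genes of EGFP+ cells (Ebf2, Reln, Trp73, Tbr1 and Lhx5) in EGFP- cells and then in the EGFP+ cells by stage. It marked 0, 3, 4 and 2 of 4 progenitor genes (Sox2, Pax6, Hes5 and Nes) in the same order. Over all protein-coding TSS the H3K27ac shares were 4.17%, 49.9%, 60.9% and 52.3%. With so few TSS marked in EGFP- cells, the 0 of 4 there says little about the progenitor genes or the label. Ebf2 itself had no H3K27ac peak within 5 kb at E15.5, and its single E11.5 and E13.5 peaks were 151 and 147 bp wide.

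A stretch of chromosome 6 that holds the anterior Hoxa genes stood apart and touches several results. It was bounded by the 3 H3K27ac peaks over 10 kb of the E15.5 list, which measured 14209, 65143 and 63794 bp and together ran from chr6:52066315 to chr6:52209817 (mm10), 143503 bp with the starts of Hoxa2, Hoxa4, Hoxa5 and Hoxa6 inside and that of Hoxa3 3519 bp beyond its end. These were all the peaks over 10 kb in the E15.5 list. The E13.5 H3K27ac list held 2 peaks over 10 kb and both also lay in the stretch. The main counts of members are therefore given again for the 33 Hox genes that start over 5 kb from the stretch.

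The sequences below are the sites on which the account turns, read from GRCm38 on the plus strand, in lower case with every CpG dinucleotide in capitals. CpG dinucleotides are shown because CpG-dense DNA is the classical substrate of Polycomb recruitment in mammals. The first 6 are H3K27me3 peaks of E13.5 EGFP+ cells that overlapped an H3K27ac peak of the same cells, 4 in coding exons of Hox genes and 2 between genes.
Hoxa13 coding exon, chr6:52260280-52260448: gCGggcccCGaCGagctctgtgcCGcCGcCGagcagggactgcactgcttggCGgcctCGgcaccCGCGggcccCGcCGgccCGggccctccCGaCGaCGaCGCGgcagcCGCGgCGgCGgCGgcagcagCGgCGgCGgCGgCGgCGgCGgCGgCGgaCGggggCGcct
Hoxa13 to Hoxa11 interval, chr6:52253503-52253713: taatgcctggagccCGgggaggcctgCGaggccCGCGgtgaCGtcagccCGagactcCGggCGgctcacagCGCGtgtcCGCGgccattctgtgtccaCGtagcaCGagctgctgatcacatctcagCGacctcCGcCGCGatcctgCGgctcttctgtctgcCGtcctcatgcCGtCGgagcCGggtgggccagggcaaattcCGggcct
Hoxb2 coding exon, chr11:96353253-96353450: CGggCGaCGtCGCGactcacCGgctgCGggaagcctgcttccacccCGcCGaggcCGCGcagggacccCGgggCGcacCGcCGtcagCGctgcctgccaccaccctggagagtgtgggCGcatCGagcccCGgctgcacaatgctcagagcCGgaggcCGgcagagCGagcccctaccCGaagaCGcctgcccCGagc
Hoxb1 coding exon, chr11:96365929-96366075: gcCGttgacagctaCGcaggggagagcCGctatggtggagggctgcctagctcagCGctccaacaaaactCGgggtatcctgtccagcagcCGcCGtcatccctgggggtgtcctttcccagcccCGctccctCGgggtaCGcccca
Hoxd9 coding exon, chr2:74698273-74698393: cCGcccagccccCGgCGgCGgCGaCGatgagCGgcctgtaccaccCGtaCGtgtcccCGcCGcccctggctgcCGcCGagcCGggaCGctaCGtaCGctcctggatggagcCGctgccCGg
Upstream of Hoxc11, chr15:102949960-102950105: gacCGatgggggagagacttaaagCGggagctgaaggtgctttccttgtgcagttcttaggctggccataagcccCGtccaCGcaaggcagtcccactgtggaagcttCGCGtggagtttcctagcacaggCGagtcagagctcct
The next 3 carried an H3K27me3 peak in EGFP- cells and an H3K27ac peak in E11.5 EGFP+ cells, and the bases covered by both peaks are shown. For Hoxc12, where that stretch was longer, the 280 bases also covered by H3K27ac at E13.5 are shown.
Hoxc12 coding exon, chr15:102937011-102937290: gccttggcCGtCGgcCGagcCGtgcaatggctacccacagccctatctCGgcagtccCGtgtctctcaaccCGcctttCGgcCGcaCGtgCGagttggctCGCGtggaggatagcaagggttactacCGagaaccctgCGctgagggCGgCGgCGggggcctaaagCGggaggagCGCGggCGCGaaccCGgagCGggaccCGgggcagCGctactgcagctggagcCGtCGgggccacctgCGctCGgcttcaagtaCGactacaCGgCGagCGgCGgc
Hoxa10 coding exon, chr6:52234041-52234178: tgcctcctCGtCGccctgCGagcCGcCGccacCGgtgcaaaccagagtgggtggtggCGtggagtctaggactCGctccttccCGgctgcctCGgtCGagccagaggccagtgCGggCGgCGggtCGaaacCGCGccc
Hoxc12 to Hoxc11 interval, chr15:102942997-102943138: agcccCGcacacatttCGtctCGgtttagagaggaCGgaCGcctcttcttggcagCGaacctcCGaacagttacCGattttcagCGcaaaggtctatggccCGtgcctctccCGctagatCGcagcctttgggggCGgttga
The last 3 are RefSeq promoters (GRCm38.p6, 250 bases before to 50 after the start, on the strand of the gene). They range from a start with peaks of both marks, in different lists, to a start with none over it.
Hoxa13 promoter, minus strand, chr6:52260831-52261130: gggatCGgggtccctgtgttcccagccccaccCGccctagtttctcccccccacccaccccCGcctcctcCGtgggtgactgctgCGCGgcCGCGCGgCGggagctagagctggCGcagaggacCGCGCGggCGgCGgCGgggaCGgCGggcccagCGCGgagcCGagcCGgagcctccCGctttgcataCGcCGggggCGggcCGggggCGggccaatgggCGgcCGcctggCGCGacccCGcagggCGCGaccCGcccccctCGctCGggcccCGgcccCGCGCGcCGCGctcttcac
Hoxd3 promoter, plus strand, chr2:74711743-74712042: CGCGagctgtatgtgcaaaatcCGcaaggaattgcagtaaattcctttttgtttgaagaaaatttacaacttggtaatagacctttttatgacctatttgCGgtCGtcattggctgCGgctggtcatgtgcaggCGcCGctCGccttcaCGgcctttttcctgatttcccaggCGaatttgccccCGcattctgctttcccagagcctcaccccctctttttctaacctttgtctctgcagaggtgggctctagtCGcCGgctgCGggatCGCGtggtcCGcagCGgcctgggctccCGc
Hoxd11 promoter, plus strand, chr2:74679308-74679607: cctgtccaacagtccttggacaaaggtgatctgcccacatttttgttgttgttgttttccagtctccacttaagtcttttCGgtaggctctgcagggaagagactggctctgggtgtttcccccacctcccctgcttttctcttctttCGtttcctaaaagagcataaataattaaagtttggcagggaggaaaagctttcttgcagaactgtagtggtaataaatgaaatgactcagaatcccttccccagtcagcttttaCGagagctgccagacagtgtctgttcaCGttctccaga

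To see how far the Hox starts were marked in each cell group, the members were counted beside all protein-coding TSS. In EGFP- cells, H3K27ac lay near 0 of 38 Hox starts (all TSS, 4.17%) and H3K27me3 near 27, or 71.1% (all TSS, 48.2%). In EGFP+ cells of the same stage the marks were the other way round, as they were over all TSS. H3K27ac lay near 15 Hox starts, or 39.5% (all TSS, 49.9%), and H3K27me3 near 0 (all TSS, 4.92%). At the density of the whole genome the Hox windows described below would hold 0.328 peaks of the first empty list and 1.51 of the second, so marks at the Hox genes in these groups cannot be said to be absent. The second, with 6387 peaks, was about as long as the E13.5 H3K27me3 list, whose 6721 peaks would give 1.59 at genome density and gave 32 in the same windows.

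At E13.5 nearly every Hox gene was marked. H3K27ac lay near 37 of 38 starts, or 97.4% (all TSS, 60.9%), and H3K27me3 near 24, or 63.2% (all TSS, 9.31%). The E13.5 H3K27me3 share was the one in which the Hox genes stood furthest above the background outside the chromosome 6 stretch, at 22 of 33 or 66.7%. By E15.5, H3K27ac lay near 12 starts, or 31.6% (all TSS, 52.3%), and near 7 of 33, or 21.2%, without the stretch. H3K27me3 lay near 6 at E15.5, or 15.8% (all TSS, 1.06%), of which 1 of 33, Hoxb5, was outside the stretch. In the other marked lists the counts without the stretch were 15 of 33 (H3K27ac, E11.5 EGFP+), 32 of 33 (H3K27ac, E13.5) and 22 of 33 (H3K27me3, EGFP- cells). The plot of shares by list shows that the E15.5 H3K27ac share of Hox starts was below that of all genes while the E13.5 shares of both marks were above it. The order for H3K27ac depended on list length and on the stretch. With each list cut to its widest peaks at equal length, H3K27ac lay near 5 of 38 starts, or 13.2%, at both E13.5 (all TSS, 1.39%) and E15.5 (all TSS, 6.87%), and near 0 of the 33 outside the stretch at both stages. E13.5 H3K27me3 at equal length lay near 12 of 38 starts and 11 of 33 outside the stretch, or 33.3% (all TSS, 2.68%).

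**Figure D1:**
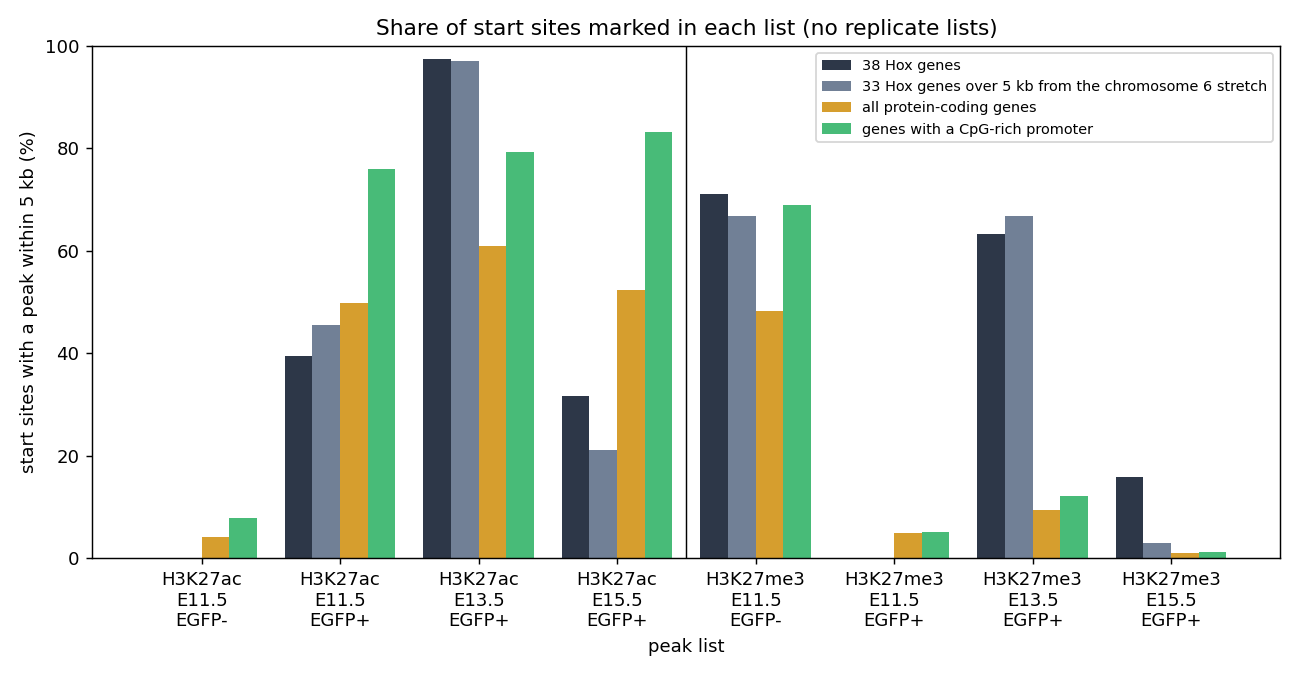
Share of start sites with a peak within 5 kb (y axis, %) in each of the 8 peak lists (x axis), for the 38 Hox genes, the 33 Hox genes over 5 kb from the chromosome 6 stretch, all protein-coding genes and genes with a CpG-rich promoter. The Hox bars reach 97.4% for H3K27ac and 63.2% for H3K27me3 at E13.5 and are at 0 in H3K27ac of E11.5 EGFP- cells and H3K27me3 of E11.5 EGFP+ cells; there are no error bars because each group has 1 list.

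CpG-rich promoters are marked more often than others, so the members were also set beside the 7073 genes with a promoter GC content over 55% and a CpG ratio (observed to expected) over 0.6. Of these genes, 76% had H3K27ac in E11.5 EGFP+ cells and 83.1% at E15.5, well above the Hox shares of 39.5% and 31.6%. For H3K27me3 at E13.5 the CpG-rich genes reached 12.2%, far below the 63.2% of the Hox genes. In EGFP- cells the H3K27me3 share of CpG-rich genes was 69%, close to the 71.1% of the Hox genes. Promoter sequences were matched for 22 of the 38 members, and 7 of them passed both thresholds. The median GC content of the 22 was 56.9% and their median CpG ratio 0.595, against 57% and 0.602 over 16539 promoters. The median of the 22 was thus not above that of all promoters. The 22 include Hoxa7, Hoxa9, Hoxc4 and Hoxd4, with CpG ratios of 0.405, 0.28, 0.333 and 0.339. Their RefSeq starts lay over 1 kb inside the annotated gene. A median without them was not computed, so no comparison of CpG content is drawn for the 5′ ends used in the counts.

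For Hoxa7, Hoxa9, Hoxc4 and Hoxd4 the RefSeq start lay over 1 kb inside the annotated gene, so their counts within 5 kb of the 5′ end describe another start. The 3 printed promoters show the range among members. The Hoxa13 promoter, with a GC content of 81%, 45 CpGs and a CpG ratio of 0.918, was overlapped by 1 H3K27me3 peak in EGFP- cells and by 1 H3K27ac peak at each of E13.5 and E15.5. The Hoxd3 promoter, with 20 CpGs and a ratio of 0.92, was overlapped by H3K27me3 in EGFP- cells and H3K27ac at E13.5. The Hoxd11 promoter, with 4 CpGs and a ratio of 0.257, was overlapped by no peak of any list, although Hoxd11, a gene of the forearm and trunk, had peaks within 5 kb in 4 lists.

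With both marks counted together, the 4 cell groups differed in how many Hox starts had neither. In EGFP- cells 27 starts had H3K27me3 only, 11 had neither and 0 had both (all TSS, 3.42% with both). In E11.5 EGFP+ cells 15 had H3K27ac only, 23 had neither and 0 had both (all TSS, 3.56%). At E13.5, 24 starts had both marks (63.2%; all TSS, 8.39%), 13 had H3K27ac only, 0 had H3K27me3 only and 1, Hoxc8, had neither. At E15.5, 6 had both (all TSS, 0.752%), 6 had H3K27ac only and 26 had neither. Without the stretch, both marks lay near 22 of 33 starts at E13.5 and near 1 of 33 at E15.5. A start with both marks in a bulk list may reflect different cells or alleles, which cannot be told apart here, and marks within 5 kb need not lie on the same bases.

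The 38 genes also differed in the number of lists that marked them. Hoxa2, Hoxa4, Hoxa9, Hoxa13 and Hoxb5 were marked in 5 of 8 lists, 10 members in 4, 13 in 3, 8 in 2, Hoxb9 in 1 and Hoxc8, a gene of thoracic and brachial identity, in 0. Neighbouring starts lie so close that peaks are shared between members. The 88 pairs of member and peak for E13.5 H3K27ac came from 70 peaks, the 29 pairs for E13.5 H3K27me3 from 25 peaks, and the 14 pairs for E15.5 H3K27ac from 8 peaks.

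**Figure D2:**
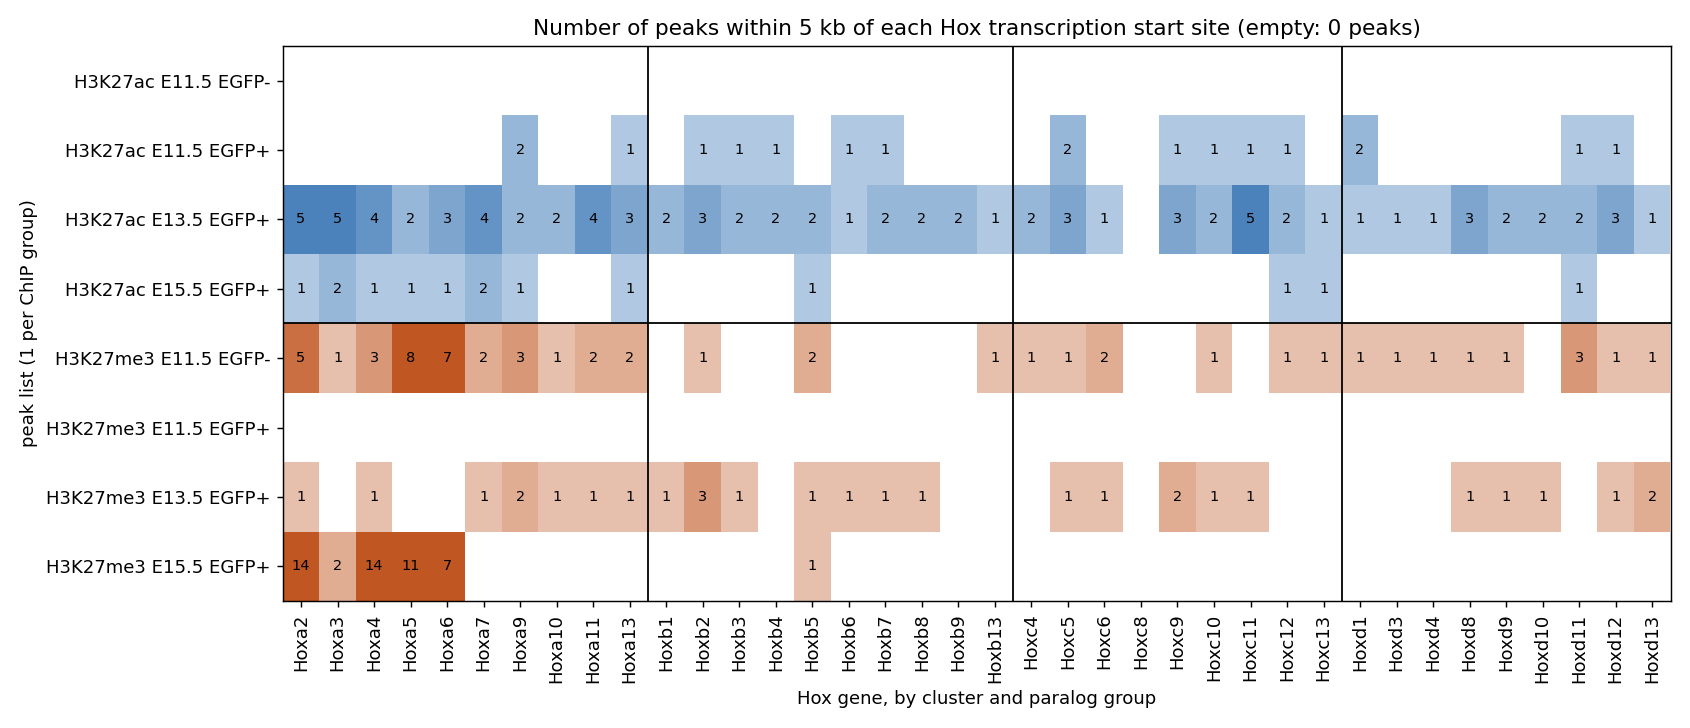
Number of peaks within 5 kb of the start of each of the 38 Hox genes (columns, by cluster and paralog group) in each of the 8 lists (rows; blue, H3K27ac; orange, H3K27me3; darker means more peaks, empty means 0). The E13.5 H3K27ac row is filled for every gene but Hoxc8, and in the E15.5 H3K27me3 row all counts but the 1 at Hoxb5 lie at Hoxa2 to Hoxa6.

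Next, the whole clusters were examined, each from the first to the last member with 20 kb on either side. The windows were chr6:52142417-52280880 for Hoxa, chr11:96174316-96388256 for Hoxb, chr15:102901103-103056852 for Hoxc and chr2:74648310-74785142 for Hoxd, 644988 bp in all. In E13.5 EGFP+ cells they held 103 H3K27ac peaks, 16 per 100 kb against 3.77 over the genome, and 32 H3K27me3 peaks, 4.96 per 100 kb against 0.247. The H3K27me3 density was thus 20.1 times that of the genome, and 21.1 times without the stretch, the highest ratio of any list outside it. EGFP- cells held 71 H3K27me3 peaks in the windows, 6.13 times the genome density, and 43 without the stretch, 4.14 times. E11.5 EGFP+ cells held 23 H3K27ac peaks, 2.62 times the genome density.

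At E15.5 the windows held 12 H3K27ac peaks, 1.97 times the genome density, and 10 of them were outside the stretch. The 76 H3K27me3 peaks of E15.5 were 225 times the genome density, and all but 1 lay in the stretch. Without it, the E15.5 clusters held a single H3K27me3 peak of 166 bp, 2024 bp upstream of the Hoxb5 start. Outside the stretch the E15.5 densities were 1.83 times (H3K27ac) and 3.3 times (H3K27me3) those of the genome, the latter from this 1 peak in a list of 1438.

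**Figure D3:**
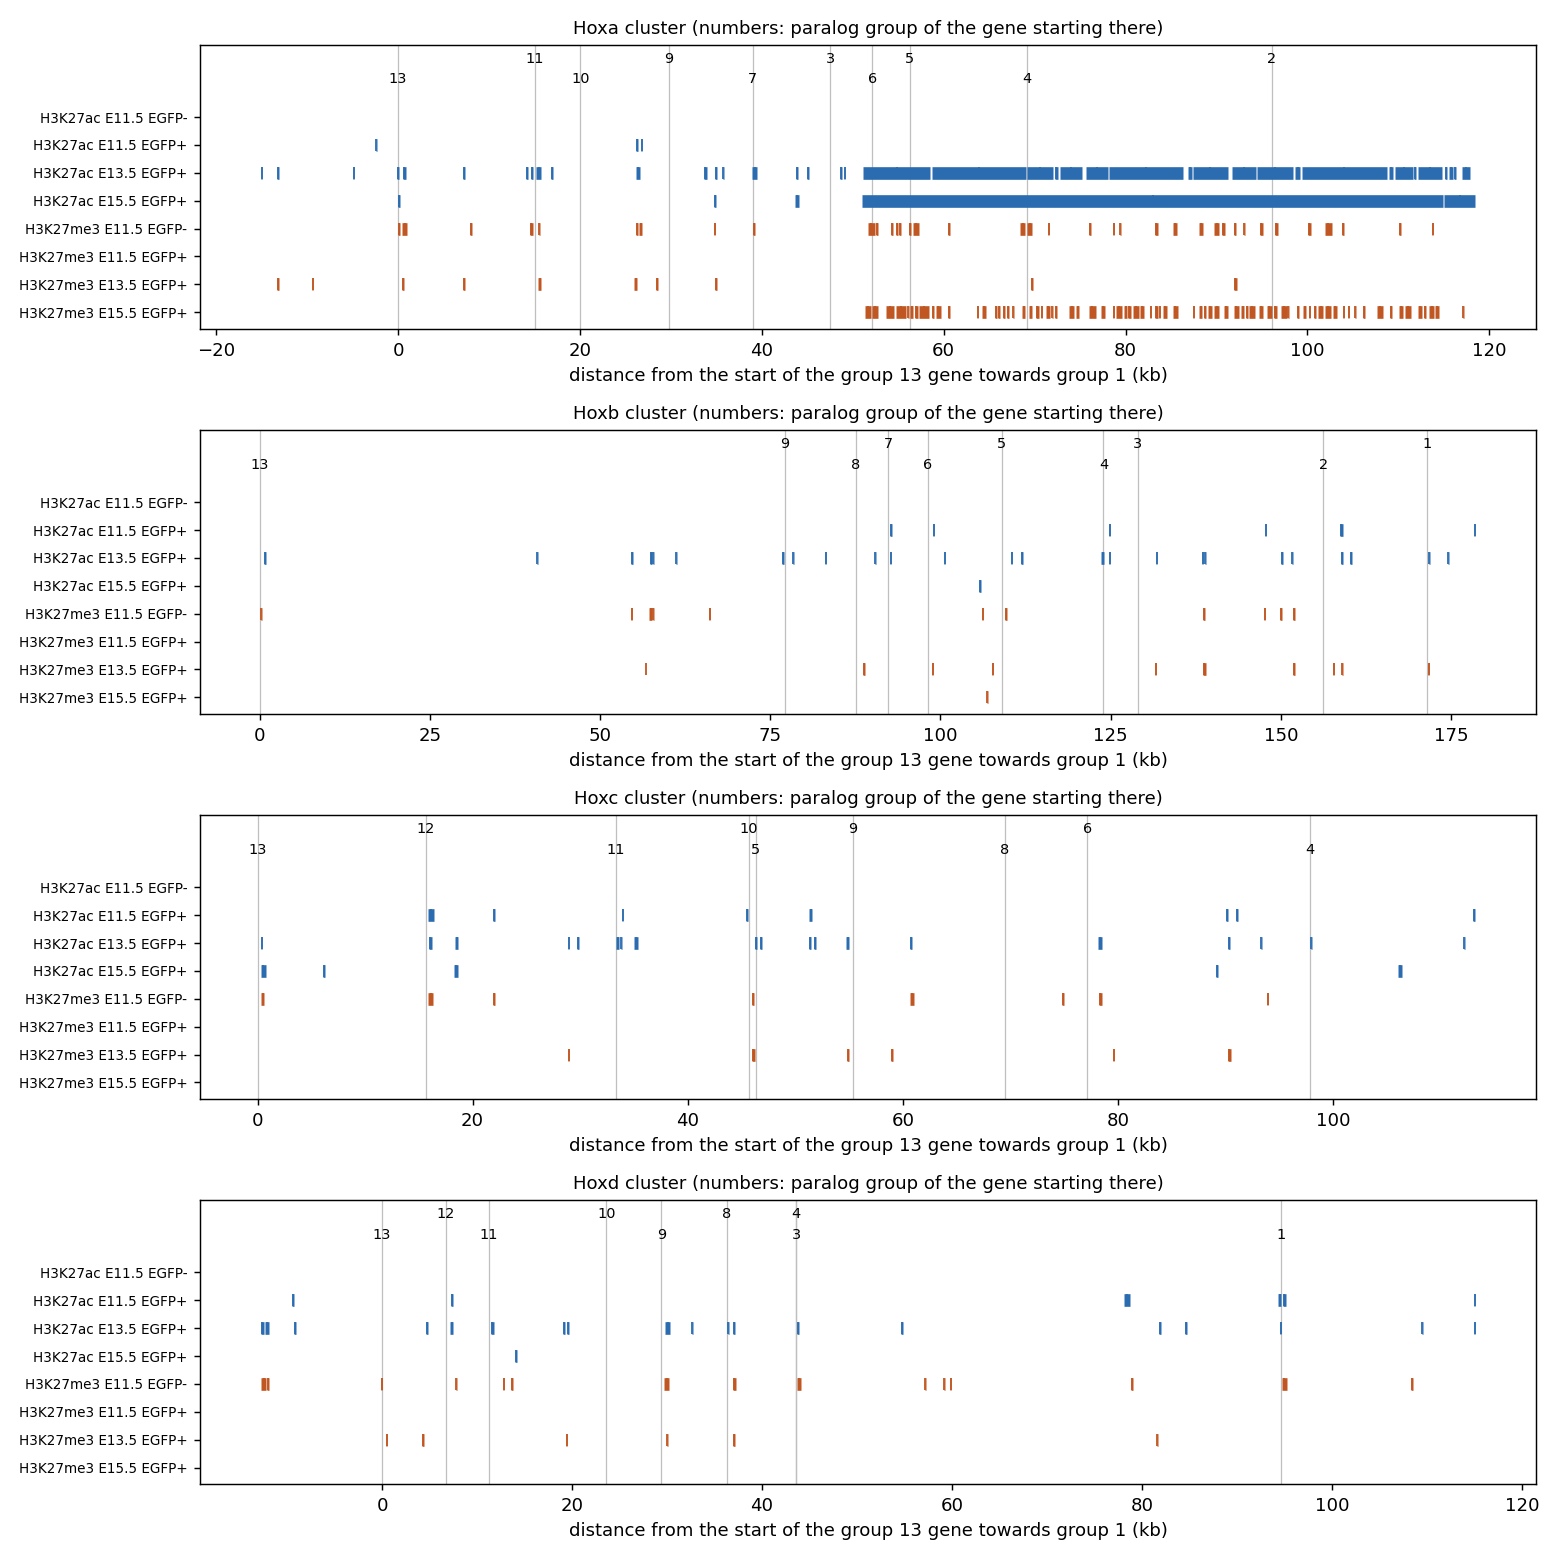
Peaks of the 8 lists (rows; blue, H3K27ac; orange, H3K27me3) along the 4 Hox cluster windows, with the distance from the start of the group 13 gene on the x axis in kb and the paralog group of each start as a number above its grey line. Bars span the peaks and a tick of fixed size marks each centre; peaks of both marks at E13.5 are spread over all 4 clusters, and the long H3K27ac bars of E13.5 and E15.5 lie over the low-numbered Hoxa genes.

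The clusters differed in the lists that marked them. In EGFP- cells H3K27me3 lay near 10 of 10 Hoxa, 3 of 10 Hoxb, 6 of 9 Hoxc and 8 of 9 Hoxd starts. Hoxb was therefore the least marked cluster in these cells, and its 11 H3K27me3 peaks covered 1.21% of its window. H3K27ac of E11.5 EGFP+ cells lay near 2 of 10 Hoxa, 5 of 10 Hoxb, 5 of 9 Hoxc and 3 of 9 Hoxd starts. Of the 5 Hoxa genes outside the stretch, 5 had H3K27me3 in EGFP- cells and 2 had H3K27ac in E11.5 EGFP+ cells. At E13.5 H3K27me3 lay near 7 of 10 Hoxa, 7 of 10 Hoxb, 5 of 9 Hoxc and 5 of 9 Hoxd starts, and near 5 of 5 Hoxa starts outside the stretch. At E15.5 H3K27ac lay near 8 of 10 Hoxa starts and near 1 of 10 Hoxb, 2 of 9 Hoxc and 1 of 9 Hoxd. Of the 8 Hoxa starts, 5 were reached by the peaks of the stretch, and 3 of the 5 outside it were marked.

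Position along the cluster was compared in 3 classes, anterior (paralog groups 1 to 4), central (5 to 8) and posterior (9 to 13). H3K27me3 of EGFP- cells marked 8 of 11 anterior, 7 of 11 central and 12 of 16 posterior starts, and no order by position was seen. H3K27ac of E11.5 EGFP+ cells marked 4 of 11, 3 of 11 and 8 of 16 in the same order. H3K27me3 at E13.5 marked 5 of 11 anterior, 8 of 11 central and 11 of 16 posterior starts, and without the stretch 3 of 8, 8 of 9 and 11 of 16. The anterior class thus had the smallest share marked by H3K27me3 at E13.5, a difference of a few genes in 1 list. Some 5′ ends used here depart from the paralog order, which limits the classes. That of Hoxc5, counted as central, lies next to Hoxc10 and takes the same H3K27me3 peak. That of Hoxa3 lies between those of Hoxa6 and Hoxa7. Hoxd3 and Hoxd4, both anterior and unmarked at E13.5 by H3K27me3, share a start. H3K27ac at E15.5 marked 3 of 11 anterior starts with the stretch and 0 of 8 without it, beside 2 of 9 central and 5 of 16 posterior starts.

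The anterior genes outside Hoxa had H3K27ac mainly at E13.5, while H3K27me3 lay near 5 of the 8 in EGFP- cells and near 3 at E13.5. Hoxb1, which specifies rhombomere 4 of the hindbrain, had 2 H3K27ac peaks and 1 H3K27me3 peak within 5 kb at E13.5 and no peak in the other 6 lists. The H3K27me3 peak, printed above, began 177 bp downstream of the start in the coding exon, and the H3K27ac peak there overlapped 49 of its 147 bp. Hoxb2, also a hindbrain gene, had 1 H3K27ac peak in E11.5 EGFP+ cells, 3 H3K27ac and 3 H3K27me3 peaks at E13.5 and 1 H3K27me3 peak in EGFP- cells. Its 419 bp H3K27ac peak of E11.5, the widest of that list in Hoxb, its E13.5 H3K27ac peak and its E13.5 H3K27me3 peak all overlapped at the coding exon site shown above. Hoxb4 had H3K27ac in EGFP+ cells of E11.5 and E13.5, with a peak of 345 bp over the start at E13.5, and no H3K27me3 peak in any list.

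Hoxb3 had 1 H3K27ac peak in E11.5 EGFP+ cells, 2 at E13.5 and 1 H3K27me3 peak at E13.5. Its gene body carried the widest Hoxb peaks of the H3K27me3 lists of EGFP- cells (398 bp) and E13.5 (366 bp). Hoxd1 had 2 H3K27ac peaks in E11.5 EGFP+ cells, 1 H3K27ac peak of 194 bp over the start at E13.5 and an H3K27me3 peak of 519 bp in EGFP- cells, the widest of that list in Hoxd. In these genes the H3K27ac peaks all came from E11.5 or E13.5 EGFP+ cells and none from E15.5. Hoxd3 and Hoxd4 share a first start in the annotation, with 1 H3K27ac peak at E13.5 and 1 H3K27me3 peak in EGFP- cells counted for both, so their own starts were not told apart by this measure. Hoxc4 had 2 H3K27ac peaks at E13.5 and 1 H3K27me3 peak in EGFP- cells.

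Among the central genes outside the stretch, Hoxb5 was marked in the most lists. It had 2 H3K27me3 peaks in EGFP- cells, 2 H3K27ac peaks and 1 H3K27me3 peak at E13.5, and 1 peak of each mark at E15.5. The E15.5 H3K27ac peak (234 bp) lay 3111 bp and the H3K27me3 peak (166 bp) 2024 bp upstream of its start, and they did not overlap. Hoxb6 and Hoxb7, trunk genes, each had H3K27ac at E11.5 and both marks at E13.5 in EGFP+ cells and no peak in EGFP- cells. Hoxb7 and Hoxb8 shared their E13.5 H3K27me3 peak of 213 bp. Hoxa7 had 4 H3K27ac peaks at E13.5, 2 at E15.5, 2 H3K27me3 peaks in EGFP- cells and 1 at E13.5. Hoxd8 had 3 H3K27ac peaks and 1 H3K27me3 peak at E13.5 and 1 H3K27me3 peak in EGFP- cells.

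Hoxc5 and Hoxc6 differed in the lists that marked them, but the 5′ ends of Hoxc9 and Hoxc8 lie between those used for them. Hoxc5 had 2 H3K27ac peaks in E11.5 EGFP+ cells, 3 H3K27ac peaks and 1 H3K27me3 peak at E13.5 and 1 H3K27me3 peak in EGFP- cells. Its annotated 5′ end belongs to a long transcript that begins next to Hoxc10, so these peaks are largely those of Hoxc10. Hoxc6 had 1 H3K27ac peak and 1 H3K27me3 peak at E13.5 and 2 H3K27me3 peaks in EGFP- cells.

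Of the 38 members, 4 had H3K27ac in all 3 EGFP+ lists, Hoxa9, Hoxa13, Hoxc12 and Hoxd11. All belong to the posterior class, which is the largest with 16 genes. The single lists marked 49.9%, 60.9% and 52.3% of all TSS by stage. The share of all TSS marked in all 3 was not computed, so the count is not read as a trait of posterior genes. Hoxa13, which acts in the distal limb and genital tubercle, had 1, 3 and 1 H3K27ac peaks in the EGFP+ lists by stage, and the E13.5 and E15.5 lists each had a peak over the start (209 and 226 bp). Its H3K27me3 peaks numbered 2 in EGFP- cells, 548 and 175 bp wide, and 1 at E13.5, 169 bp wide and 432 bp downstream of the start. Hoxa9, a trunk and blood stem cell gene, had 2, 2 and 1 H3K27ac peaks by stage, 3 H3K27me3 peaks in EGFP- cells and 2 at E13.5. All were over 1 kb from its 5′ end, and several of them lay in a coding exon of Hoxa10, printed in part above.

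At Hoxc12 the same bases were H3K27me3-marked in EGFP- cells and H3K27ac-marked in E11.5 EGFP+ cells. The H3K27me3 peak ran over chr15:102936983-102937462 and the H3K27ac peak over chr15:102936986-102937477, with starts 3 bp and ends 15 bp apart. They were the widest peaks of their lists in Hoxc (480 and 492 bp). The E13.5 list held an H3K27ac peak of 280 bp on the same exon and a second one of 275 bp, 2738 bp downstream of the start. The E15.5 list had no peak on the exon, and its H3K27ac peak, 2593 bp downstream, overlapped this second site. The 280 bases printed above hold 36 CpGs, with a GC content of 70.4% and a CpG ratio of 1.04.

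Hoxc13, known for hair and nail growth, had no peak at E11.5 in EGFP+ cells, an H3K27ac peak of 147 bp at E13.5 and the widest H3K27ac peak of Hoxc at E15.5, 428 bp wide and 321 bp from the start. Its H3K27me3 peak in EGFP- cells (196 bp) lay 364 bp from the start, within the E15.5 H3K27ac peak. Hoxd11 had 1, 2 and 1 H3K27ac peaks by stage and 3 H3K27me3 peaks in EGFP- cells, and none at E13.5. Hoxa11, a forearm and kidney gene, had 4 H3K27ac peaks at E13.5, 1 H3K27me3 peak at E13.5 and 2 H3K27me3 peaks in EGFP- cells. Its E13.5 H3K27me3 peak of 402 bp, the widest of that list in Hoxa, shared 400 bp with an H3K27ac peak of 542 bp. Neither Hoxa11 nor Hoxc13 had an H3K27ac peak in E11.5 EGFP+ cells.

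Hoxc9, Hoxc10 and Hoxc11, which pattern thoracic and lumbar spinal cord, each had 1 H3K27ac peak in E11.5 EGFP+ cells and both marks at E13.5. Hoxc11 had 5 H3K27ac peaks at E13.5, the most of any member outside Hoxa, and 1 H3K27me3 peak, which is printed above. Hoxd9 had 2 H3K27ac peaks and 1 H3K27me3 peak at E13.5 and 1 H3K27me3 peak in EGFP- cells, and its E13.5 H3K27ac peak of 486 bp was the widest of that list in Hoxd. Hoxd10, a gene of lumbar motor neurons, had 2 H3K27ac peaks and 1 H3K27me3 peak at E13.5. Hoxd12 and Hoxd13, active in the digits, shared an E13.5 H3K27me3 peak of 162 bp, and Hoxd13 had a further one 444 bp downstream of its start. Hoxa10, Hoxb9 and Hoxb13 had H3K27ac peaks at E13.5 (2, 2 and 1), and of these only Hoxa10 and Hoxb13 had H3K27me3 in EGFP- cells, with 1 peak each.

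The widest peaks of each list in each cluster were also compared. Outside the stretch none was over 549 bp, the width of an H3K27ac peak of E11.5 EGFP+ cells in the Hoxd3 gene. In Hoxa the widest H3K27ac peaks were 215 bp at E11.5, 10343 bp at E13.5 and 65143 bp at E15.5, the later ones in the stretch, and the widest H3K27me3 peaks were 878 bp in EGFP- cells, 402 bp at E13.5 and 1192 bp at E15.5. In Hoxc they were 492, 346 and 428 bp for H3K27ac by stage and 480 bp (EGFP- cells) and 222 bp (E13.5) for H3K27me3. Within each cluster, the member with the most H3K27me3 peaks in EGFP- cells was Hoxa5 with 8, Hoxd11 with 3, and Hoxb5 and Hoxc6 with 2 each.

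To see whether the marks fell on the same bases, peaks of the windows outside the stretch were overlapped between lists (at least 1 bp). At E13.5, 16 of 30 H3K27me3 peaks (53.3%) overlapped an H3K27ac peak, and 17 of 82 H3K27ac peaks (20.7%) overlapped an H3K27me3 peak. Genome-wide the shares were 38.4% and 2.47%. The 16 H3K27me3 peaks lay in coding exons (7), introns (4), UTRs (2) and between genes (3), and 6 were within 1 kb of a member start. Their GC content ranged from 57.8% to 85.8% and their median CpG ratio was 0.748. Of the 16, 7 were also H3K27me3 sites in EGFP- cells and 2 were H3K27ac sites in E11.5 EGFP+ cells.

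The E13.5 peaks coincided to differing extents at the printed examples. At the interval between Hoxa13 and Hoxa11 the H3K27me3 peak of 211 bp and the H3K27ac peak of 206 bp had starts 4 bp and ends 1 bp apart, with 24 CpGs. Upstream of Hoxc11 the starts were 19 bp and the ends 3 bp apart, with 7 CpGs. In the Hoxa13 exon the overlap was 69 of 169 bp, in the Hoxb1 exon 49 of 147 bp, in the Hoxb2 exon 158 of 198 bp. In the Hoxd9 exon it was all 121 bp. Starts and ends were both within 50 bp of each other in 3 of the 17 overlapping pairs. The smallest overlap of a pair was 18.9% of the H3K27me3 peak. Neither depth nor input signal at these sites was known, so whether reads common to both lists contribute was not tested.

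Across stages and cell groups, sharing in the clusters was as follows. Of 43 H3K27me3 peaks in EGFP- cells, 22 (51.2%) overlapped an H3K27ac peak of E13.5 EGFP+ cells, against 37.7% genome-wide, and these were 26.8% of the 82 E13.5 peaks, against 17.6%. With H3K27ac of E11.5 EGFP+ cells 6 were shared (14%, and 26.1% of the 23 peaks of the other list), against 21.7% and 27.7% genome-wide. The member starts closest to them were those of Hoxa9 (2 peaks, in the Hoxa10 coding exon), Hoxc12 (2), Hoxd1 and Hoxb2. The site at Hoxb2 was 8474 bp and the second one at Hoxc12 6208 bp from the start, so neither counted as within 5 kb. H3K27me3 of E11.5 EGFP- and of E13.5 EGFP+ cells shared 9 peaks (20.9% of 43 and 30% of 30), against 2.87% and 21.3%. H3K27ac of E11.5 and E13.5 EGFP+ cells shared 11 (47.8% of 23 and 13.4% of 82), against 36.7% and 13.6% genome-wide. H3K27ac of E13.5 and E15.5 shared 5 (6.1% of 82 and 50% of 10), against 11.2% and 39.4%.

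Peaks in the clusters were richer in CpG than the peaks of their lists. The median CpG ratio of the H3K27me3 peaks outside the stretch was 0.82 in EGFP- cells and 0.648 at E13.5, against 0.358 and 0.333 over the whole lists. For H3K27ac it was 0.785, 0.646 and 0.68 in EGFP+ cells by stage, against 0.367, 0.278 and 0.52. At E13.5, 27 of 82 H3K27ac peaks and 9 of 30 H3K27me3 peaks had their centre within 1 kb of a member start, 33 and 14 lay at 1 to 5 kb, and 22 and 7 lay further off. Most peaks of both marks were thus over 1 kb from a member start.

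The chromosome 6 stretch was examined list by list. At E15.5, H3K27ac covered 99.8% of it in 3 peaks, and the stretches of equal length on the left and right were covered to 0.139% and 0.61%. At E13.5, H3K27ac covered 90.7% in 60 peaks, against 0.206% and 4.27%. E15.5 H3K27me3 covered 33.4% in 139 peaks, 9.67% of that whole list, and had 0 peaks in either flank. H3K27me3 of EGFP- cells covered 7.42% in 36 peaks, against 0.226% and 2.24%. Both marks were thus dense over the same stretch at E15.5.

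In the other lists the stretch was nearly empty. H3K27ac of both E11.5 cell groups and H3K27me3 of E11.5 EGFP+ cells had 0 peaks in it, and E13.5 H3K27me3 had 4, which covered 0.522%. The edges lay close together in 3 lists. Relative to the E15.5 H3K27ac peaks, the outermost peaks of E13.5 H3K27ac began 135 bp further in on the left and ended 66 bp further in on the right, and those of E15.5 H3K27me3 421 and 287 bp. H3K27me3 of EGFP- cells began 4262 bp further in on the left and ended 622 bp further in on the right. The right edge fell 1095 bp upstream of the Hoxa6 start and 12037 bp before the Hoxa7 start. The left edge fell outside the Hoxa window, and 76102 bp of the stretch held no protein-coding start. What gave these edges was not tested, and no read coverage or input track was used here.

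**Figure D4:**
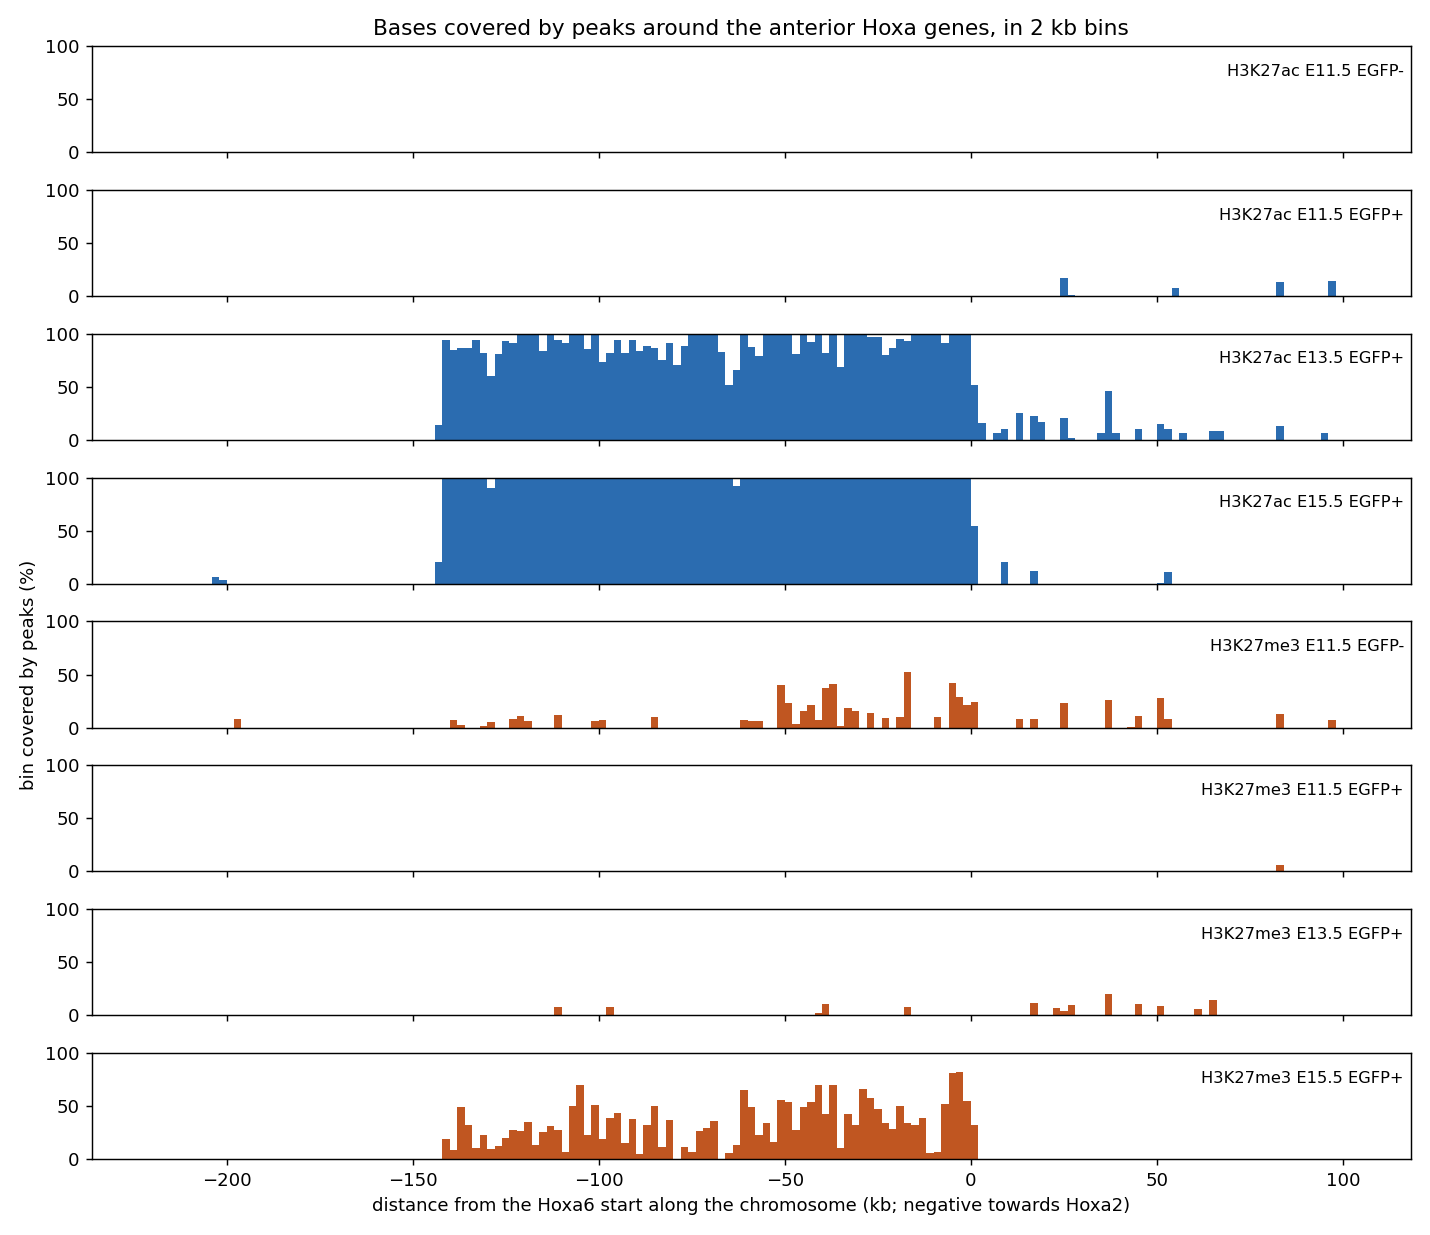
Share of each 2 kb bin covered by peaks (y axis, %) against the distance from the Hoxa6 start in kb (x axis), 1 panel per list (blue, H3K27ac; orange, H3K27me3). H3K27ac of E13.5 and E15.5 covers 90.7% and 99.8% of a stretch of 143503 bp that stops close to the Hoxa6 start, H3K27me3 of E15.5 covers 33.4% of the same stretch, and 3 lists have no peak in it.

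In the stretch lie Hoxa2, which patterns the hindbrain and the second branchial arch, Hoxa4, Hoxa5, a gene of cervical and lung development, and Hoxa6. Within 5 kb of the Hoxa2 start there were 0, 0, 5 and 1 H3K27ac peaks in the order E11.5 EGFP-, E11.5, E13.5 and E15.5 EGFP+, and 5, 0, 1 and 14 H3K27me3 peaks. For Hoxa4 these were 0, 0, 4 and 1 and then 3, 0, 1 and 14. For Hoxa5 they were 0, 0, 2 and 1 and then 8, 0, 0 and 11, the 8 being the most of any Hox gene in EGFP- cells. Hoxa6 had 0, 0, 3 and 1 and then 7, 0, 0 and 7. The E15.5 H3K27ac peak was the same 63794 bp peak in all 4 genes, and Hoxa3 reached its end within 5 kb. Near all but Hoxa6 the E15.5 list held more H3K27me3 peaks than that of the EGFP- cells.

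Other genes in the windows share the same DNA and were counted the same way. Of 49 non-coding genes, 0, 15, 46 and 17 had H3K27ac and 38, 0, 34 and 9 had H3K27me3, in the order above, and of the 40 outside the stretch 0, 15, 37 and 8 and 29, 0, 32 and 0. Hottip, a long non-coding RNA next to Hoxa13, had 1, 3 and 1 H3K27ac peaks in the EGFP+ lists by stage, 2 H3K27me3 peaks in EGFP- cells and 1 at E13.5. Hotair, transcribed from between Hoxc11 and Hoxc12 and known for binding Polycomb complexes, had 1 H3K27ac peak in E11.5 and 2 in E13.5 EGFP+ cells, and 1 H3K27me3 peak in E11.5 EGFP- and in E13.5 EGFP+ cells. Of the microRNA genes, Mir10a had H3K27ac in EGFP+ cells (1 peak at E11.5 and 2 at E13.5) and no H3K27me3 peak, and Mir10b had 1 H3K27ac peak at E13.5 and 3 H3K27me3 peaks in EGFP- cells. The counts of the non-coding genes take in many of the same peaks as the Hox starts around them, so they are not a separate result.

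Other homeobox genes and the partners of Hox proteins were set beside them. For H3K27me3 at E13.5, 5 of 6 Irx genes, which are also clustered homeobox genes, were marked, 4 of 10 forebrain patterning genes, 5 of 11 upstream regulators of Hox genes, 4 of 14 Polycomb genes and 1 of 9 Hox cofactors, against 24 of 38 Hox genes. The share of all TSS was 9.31%. Irx2 and Irx3 had 4 peaks each. For H3K27ac at E15.5, 9 of 9 cofactors (Pbx, Meis and Pknox genes), 8 of 10 forebrain genes, 12 of 14 Polycomb genes, 5 of 11 upstream regulators and 2 of 6 Irx genes were marked, against 12 of 38 Hox genes. The share of all TSS in that list was 52.3%, and that of genes with a CpG-rich promoter was 83.1%. A high share in a set as small as the cofactors is thus near that of CpG-rich genes, while most Hox starts had no peak.

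The E15.5 H3K27ac peaks at Hox genes outside the stretch were also narrow. They were 205 to 428 bp wide at Hoxa7, Hoxa9, Hoxa13, Hoxb5, Hoxc12, Hoxc13 and Hoxd11, while the widest peaks near Emx2 and Lhx2, forebrain regulators, were 1188 and 868 bp. The cofactor Meis2 had 8 H3K27ac peaks within 5 kb at E15.5, the widest 687 bp. Of the Polycomb genes, Ezh2, Suz12 and Jarid2 had E15.5 H3K27ac peaks of 1439, 1186 and 1487 bp and no H3K27me3 peak at E13.5. Among upstream regulators, Cyp26a1, which degrades retinoic acid, had 1 and 4 H3K27ac peaks at E11.5 and E13.5, 0 at E15.5, and 2 H3K27me3 peaks at E13.5.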

How the data were processed

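Cortical cells were sorted by EGFP, and H3K27ac and H3K27me3 were measured by ChIP-seq in 15 libraries of 8 groups, with 8 input libraries. According to the study's methods and processing notes, reads were aligned to mm10 with Bowtie 1.1.2 with MACS as the peak caller (threshold p 1e-05). Use of the input, pooling of replicates and the MACS version were not given in the sources used here. The authors deposited 1 list of peak positions per group, with a score that is 0 for every peak, so no height or enrichment was available. Depth is unknown and no read counts were in the lists.

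TSS were the 5′ ends of the protein-coding genes of GENCODE M21. A gene was marked when a peak lay within 5 kb, and cluster windows had flanks of 20 kb. Positions are counted from 1. Sequences came from GRCm38 and the RefSeq promoter table (Python 3.11.15, pysam 0.24.0). The overlap code was tested on simulated data. Members with peaks in the most lists, the member with the most progenitor H3K27me3 peaks in each cluster and the widest peaks were named first. The members, gene lists and settings were chosen with earlier results of these data known, and the chromosome 6 stretch was set apart after seeing the data. A further Hox gene is not reported here. Other settings were a TSS window of 1 kb, any transcript start, peaks of at least 300 bp, the widest 1386 (H3K27ac) or 1438 (H3K27me3) peaks of each list, no flank, merged peaks and a reciprocal overlap of 50%.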

Additional observations from a re-analysis of the deposited data

How the results depend on the processing

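No paired analysis was possible because each group has 1 list, and for the same reason no replicate could be left out. Of 98 alternative values, 62 stayed within 1.5 times the count in the report and 36 did not, and none was a test. The 62 include every alternative to a main count of 0, and all of these stayed at 0. Only the setting of any transcript start could have raised them, so the 62 overstate how stable the other counts were. With a TSS window of 1 kb, H3K27ac of E11.5 Ebf2-EGFP+ lay near 9 Hox starts, or 23.7% (all TSS, 40.6%). H3K27ac at E15.5 lay near 6, or 15.8% (all TSS, 46%), and H3K27me3 at E13.5 near 11, or 28.9% (all TSS, 5.34%). Starts with both marks at E13.5 fell to 9. With peaks of at least 300 bp, H3K27ac lay near 3 starts, or 7.89%, in E11.5 Ebf2-EGFP+ (all TSS, 28.9%). At E13.5 it lay near 16, or 42.1% (all TSS, 23%). H3K27me3 lay near 14, or 36.8%, in E11.5 Ebf2-EGFP- (all TSS, 16.8%) and near 2, or 5.26%, at E13.5 (all TSS, 0.62%). Both marks at E13.5 lay near 2. Cluster peaks were then 4, 31 and 6 for H3K27ac of Ebf2-EGFP+ cells by stage. For H3K27me3 they were 25, 2 and 41 (E11.5 Ebf2-EGFP-, E13.5 and E15.5). With lists cut to equal length, marked starts were 0, 5 and 5 for H3K27ac by stage, 4 for H3K27me3 of E11.5 Ebf2-EGFP- and 12 at E13.5, and cluster peaks 0, 13, 2, 5 and 15. At equal length, E13.5 H3K27me3 lay near 31.6% of Hox starts and 2.68% of all starts. The shares of all starts were 6.25%, 1.39% and 6.87% for H3K27ac by stage and 2.98% for H3K27me3 of E11.5 Ebf2-EGFP-. Merging peaks within 1 kb left 67 H3K27ac peaks at E13.5 and 9 H3K27me3 peaks at E15.5. Without the chromosome 6 stretch, an alternative added after seeing the data, marked starts at E15.5 were 7 (H3K27ac) and 1 (H3K27me3), starts with both marks 1, and cluster peaks 43 for H3K27me3 of E11.5 Ebf2-EGFP- and 1 at E15.5. With a reciprocal overlap of 50%, shared cluster peaks fell to 8 (E13.5 H3K27ac with H3K27me3), 3 (H3K27ac of E13.5 with E15.5), 4 (H3K27me3 of E11.5 Ebf2-EGFP- with E13.5) and 12 (H3K27me3 of E11.5 Ebf2-EGFP- with H3K27ac of E13.5). Stricter windows, peaks, members or overlaps can only lower a count, and what set the size of each fall was not tested. Unknown depth limits every absent peak.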

Other observations

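The part of the chromosome 6 stretch outside the Hoxa window, chr6:52066315-52142416 (76102 bp, mm10), includes the long non-coding gene Halr1. There H3K27ac of EGFP+ cells covered 89.7% (E13.5) and 99.8% (E15.5), and H3K27me3 covered 2.01% in E11.5 EGFP- cells and, in EGFP+ cells, 0.431% (E13.5) and 25.6% (E15.5), while both H3K27ac lists of E11.5 and the H3K27me3 list of E11.5 EGFP+ cells had 0 peaks.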
